A study of Mus musculus with 2 samples.

Results

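The 9 genes described here encode transcription factors of the skeletal and dental lineages: Runx2, Sp7, Dlx3, Dlx5, Dlx6, Msx1, Msx2, Sox9 and Pitx1. They were taken by symbol from the 34285 genes of the deposited count matrices, and all 9 were present with a single row each. Their levels were followed across the cell classes of the developing mouse molar, across the states of its mesenchyme, and between mice with and without macrophage depletion.

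Runx2 opens the osteoblast programme, and Sp7 (Osterix) acts downstream of it in the cells that lay down bone, cementum and dentin. The Dlx and Msx genes are homeobox genes that pattern the jaw and the tooth germ, and many of them respond to BMP signals passed between dental epithelium and mesenchyme. Sox9 drives cartilage formation and also marks epithelial and mesenchymal progenitors. Pitx1 is a homeobox gene of the mandibular arch and of oral and dental epithelium.

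Single cells came from first mandibular molars and the tissue around them at PN15.5, while the roots were growing. All mice were C57BL/6J, and each library was replicate 1 of its condition. The shared number does not show that the libraries were processed together. The Lipo-Clo mice had received liposomes loaded with clodronate, which kill phagocytes, at 40 μg/g intraperitoneally every 3 days from PN3.5 to PN12.5, and the Lipo-PBS mice had received vehicle liposomes on the same days. The comparison addresses how macrophage loss bears on the cells that form the root. Each condition was 1 library, so no test between conditions was possible and no value has a replicate check. The number of mice per library is not given in the sources used here. Intervals are at the 95% level, exact Poisson for levels and ratios and Clopper-Pearson for shares, and they cover counting error only.

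After filtering, 8254 Lipo-Clo cells (26852423 UMIs) and 8261 Lipo-PBS cells (25831678 UMIs) remained, of which 23 had a barcode found in both libraries. They formed 28 clusters and 13 named classes. Dental mesenchyme, the class with collagen genes, held 4097 Lipo-Clo cells with a median of 2785 UMIs and 3904 Lipo-PBS cells with a median of 2942 UMIs. It was divided into 11 states, each called by its 2 leading genes and, where the markers allowed, by the cell type it resembled. The 9 members were kept out of the marker lists and of the variable genes, so that they formed neither classes nor states. Mitochondrial genes took 0.370% of UMIs in Lipo-Clo and 1.73% in Lipo-PBS, and haemoglobin genes took 2.28% and 4.97% of the mesenchymal UMIs. All 7 ameloblast, 7 neutrophil and 7 erythroid markers were detected among mesenchymal cells. Their summed levels were 336 and 234 UMIs per 1000000 UMIs (CPM) for ameloblast markers in Lipo-Clo and Lipo-PBS, 646 and 118 CPM for neutrophil markers, and 22900 and 49800 CPM for erythroid markers. The part of these transcripts in the results below was not tested, except where a value is given.

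The members fell into groups by where in the tissue they were highest. Runx2 and Dlx3 led in ameloblasts, the enamel-forming cells. Msx2, Sox9 and Pitx1 led in the other epithelium, a class whose larger cluster of 561 cells was led by Krt15, Lgals7, Krt6a and Krt14, genes of stratified keratinocytes. Sp7 and Msx1 had their highest levels in mesenchyme, with cycling cells close behind, and Dlx5 and Dlx6 were at similar levels in several classes. Within mesenchyme divided into 11 states, Runx2 was highest in the osteoblast or cementoblast-like state, Sp7 in the odontoblast-like and osteoblast or cementoblast-like states, and Dlx3, Dlx5, Msx2 and Sox9 in the states that resemble dental papilla or pulp. Msx1 was high in a papilla or pulp-like and a periodontal ligament-like state, Dlx6 in a state without a name, and Pitx1 in fibroblast-like cells.

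**Figure D1:**
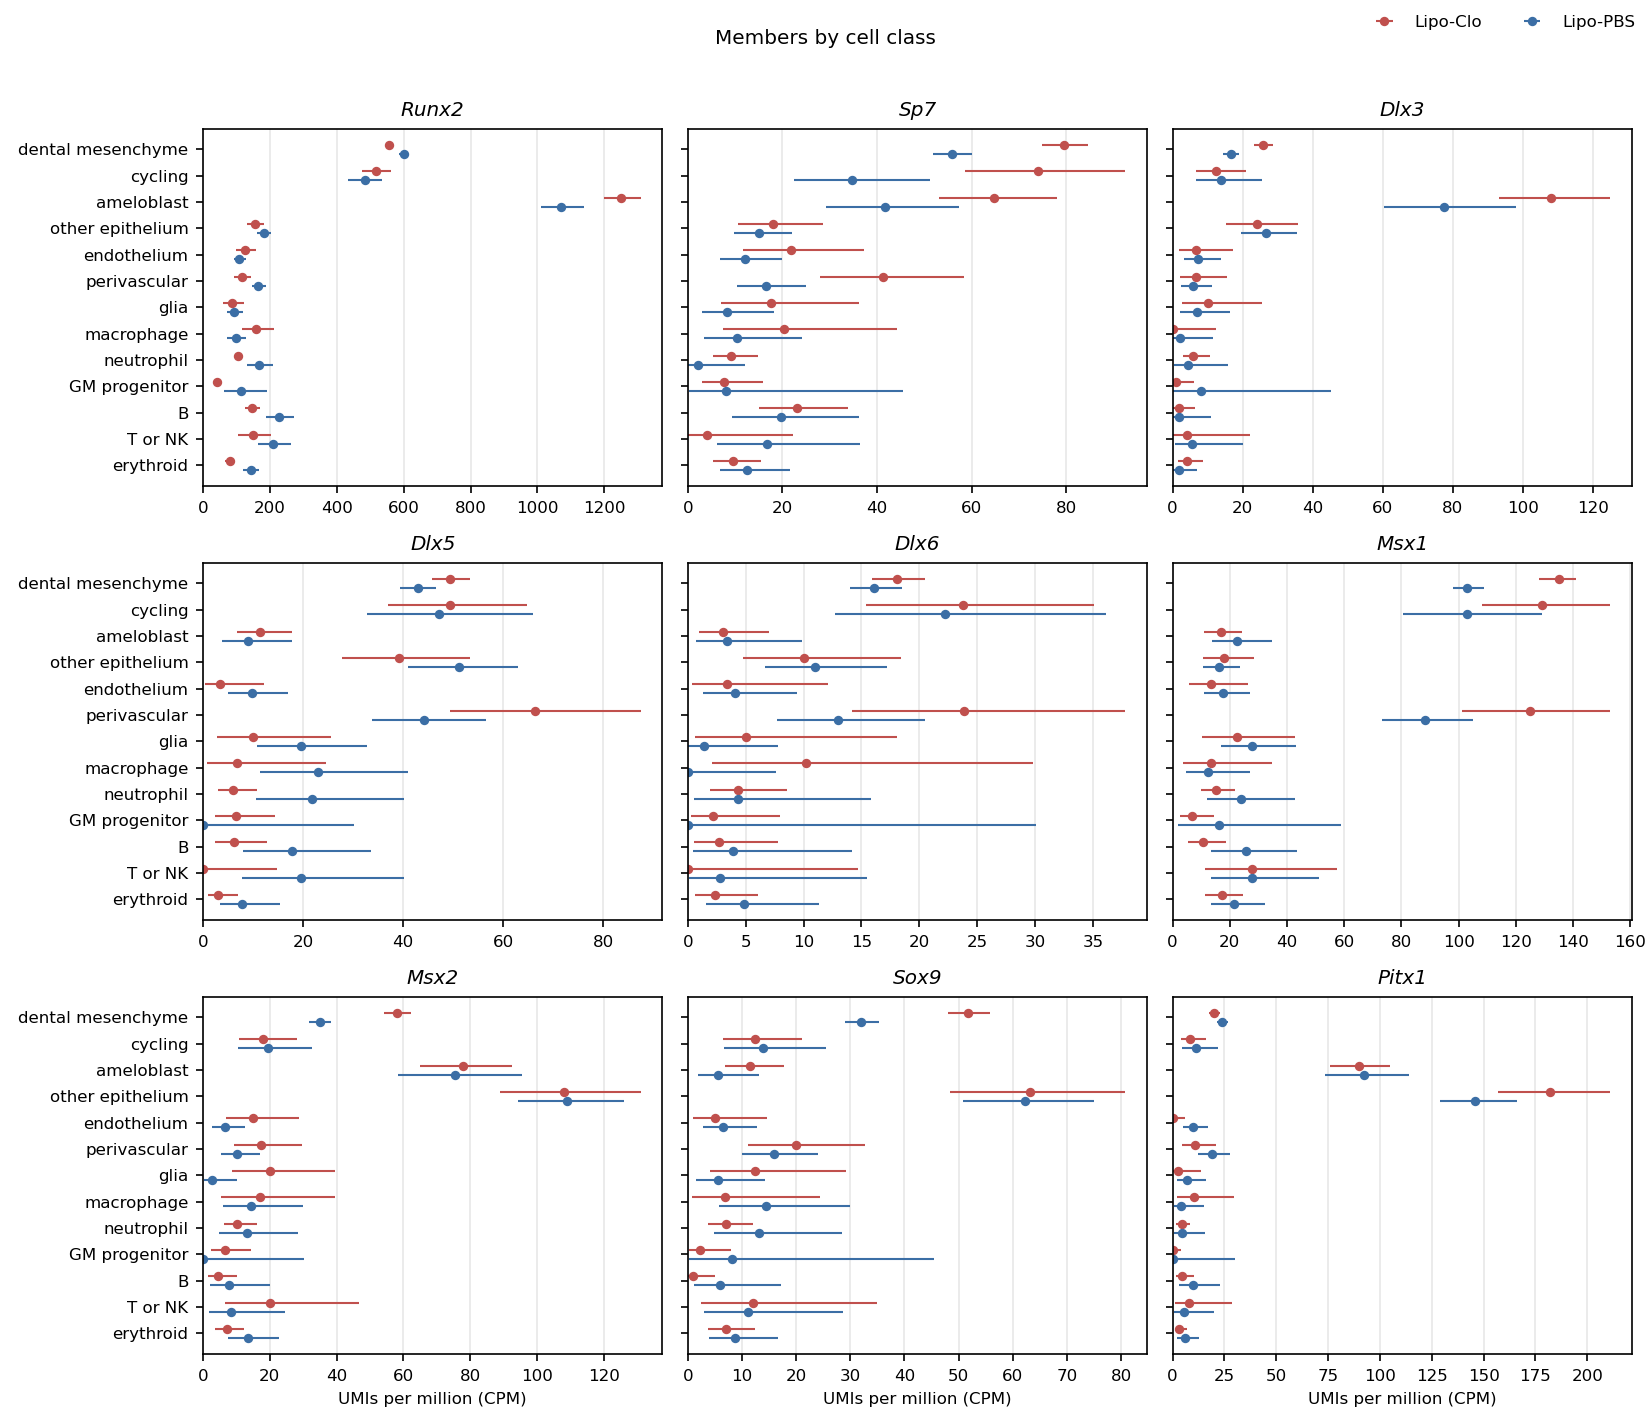
Level of each member in the 13 named cell classes, in CPM, for Lipo-Clo (red) and Lipo-PBS (blue). Points are summed UMIs of 1 library and bars are exact 95% Poisson intervals. Runx2 and Dlx3 lie farthest to the right in ameloblasts, and Msx2, Sox9 and Pitx1 in the other epithelium.

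Runx2 (ENSMUSG00000039153, chr17:44495987-44814797, minus strand) was the member seen in the largest share of mesenchymal cells. Gene positions here and below were looked up by Ensembl identifier in GENCODE M21, which is on GRCm38, an older build than the one named for the files. Its mesenchymal level was 555 CPM in Lipo-Clo against 600 CPM in Lipo-PBS, from 7444 and 7702 UMIs. In ameloblasts it reached 1250 CPM in Lipo-Clo against 1070 CPM in Lipo-PBS, and over both libraries this was 2.06-fold the mesenchymal level. Among cells thinned to 1000 UMIs, 52.0% of ameloblasts, 36.7% of mesenchymal cells and 12.8% of B cells held a Runx2 UMI. Unthinned, these shares were 66.1%, 58.1% and 11.6%, at median depths of 2308, 2864 and 996 UMIs. Thinning left out shallower cells, 382 Lipo-Clo and 263 Lipo-PBS cells of the mesenchyme, 110 and 67 ameloblasts, and 269 and 129 B cells. B cells serve here as a class in which skeletal factors are not expected. Free RNA was not removed, and what part of the B cell values it makes up was not tested.

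Within mesenchyme, Runx2 spanned a wide range of levels. The Smpd3/Bglap2 osteoblast or cementoblast-like state held 1290 CPM in Lipo-Clo (interval 1240 to 1350) against 1340 CPM in Lipo-PBS (1280 to 1400). The Pappa2/Tnn periodontal ligament-like state followed with 739 and 855 CPM, so that the leading state was 1.68-fold higher over both libraries. The Pcp4/H19 state, which kept no cell type name, held 652 and 761 CPM, and the Moxd1/C1qtnf3 dental follicle-like state held 590 and 715 CPM. The Dspp/Bglap odontoblast-like state was far below these, at 200 CPM in Lipo-Clo against 215 CPM in Lipo-PBS. The Col14a1/Ccl19 fibroblast-like state was lowest, at 33.2 and 49.6 CPM. The gap between the leading state and the next was larger than the counting intervals in both libraries, but it depended on how finely the mesenchyme was divided. At resolution 1, a cluster of 212 cells with a median of 1720 UMIs and fewer than 3 markers of any type held the most Runx2, at 3450 CPM in Lipo-Clo against 2160 CPM in Lipo-PBS. Of these cells, 134 had been in the Pappa2/Tnn state and 78 in the osteoblast or cementoblast-like state. The cluster next in order, with 734 of the osteoblast or cementoblast-like cells, stood at 1220 and 1300 CPM.

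Between the libraries, mesenchymal Runx2 was slightly lower in Lipo-Clo, with a log2 ratio of Lipo-Clo over Lipo-PBS of -0.11 (interval -0.16 to -0.07). Of the 10 states with at least 50 Runx2 UMIs, 9 had a ratio below 0, and in 7 of these the interval lay below 0. The ratio was -0.35 in the Edil3/Angptl1 periodontal ligament-like state (-0.54 to -0.16) and -0.28 in the follicle-like state (-0.40 to -0.16). In the Ctnnd2/Cntn4 papilla or pulp-like state it was -0.44 (-0.81 to -0.07), and in the Lrrc4c/Cntn6 papilla or pulp-like state it was -0.32 (-0.53 to -0.10). In the osteoblast or cementoblast-like state, the highest in Runx2 at this division of the mesenchyme, the ratio was -0.05 and its interval included 0 (-0.14 to 0.04). Ameloblasts went the other way, with a ratio of 0.22 (0.11 to 0.33). Of the classes with little Runx2, macrophages were at 0.71 (0.09 to 1.32), from 47 UMIs in each library. Several others lay below 0, with ratios of -0.64 in B cells (-0.99 to -0.28), -0.67 in neutrophils (-1.06 to -0.27) and -0.82 in erythroid cells (-1.17 to -0.48). The mesenchymal ratio crossed 0 under some scalings: it was 0.04 as a mean over scaled cells, and 0.01 with clusters of several lineages counted as mesenchyme. State ratios also changed with finer division. At resolution 1, the 212-cell cluster with the most Runx2 was higher in Lipo-Clo, at 3450 against 2160 CPM. The next, mostly of osteoblast or cementoblast-like cells, was lower, at 1220 against 1300 CPM. Of clusters mostly of follicle-like cells, the larger held 604 against 1070 CPM and the smaller 411 against 494 CPM. At the same mixture of these clusters, the mesenchymal ratio was -0.21.

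Sp7 (ENSMUSG00000060284, chr15:102356606-102367182, minus strand) was higher in Lipo-Clo in all 4 named classes with at least 50 of its UMIs. In mesenchyme it stood at 79.6 CPM in Lipo-Clo against 55.8 CPM in Lipo-PBS, from 1067 and 716 UMIs, a log2 ratio of 0.51 (0.37 to 0.65). The ratio was 0.64 in ameloblasts (0.09 to 1.22), 1.10 in cycling cells (0.43 to 1.81) and 1.31 in perivascular cells (0.48 to 2.15), the last from 31 and 23 UMIs. Perivascular cells held 41.2 CPM in Lipo-Clo against 16.6 CPM in Lipo-PBS, the latter below the B cell level of that library. Among thinned cells, 5.94% of mesenchymal cells and 2.04% of B cells held an Sp7 UMI. The other named classes held few UMIs and had levels no higher than that of B cells in either library, 23.0 CPM in Lipo-Clo against 19.6 CPM in Lipo-PBS. Some of these low levels were also higher in Lipo-Clo, as in macrophages (20.4 and 10.4 CPM). Others were lower, as in T or NK cells (3.99 and 16.7 CPM).

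Over both libraries, the highest Sp7 levels lay in the 2 states that resemble cells making mineralised matrix. The odontoblast-like state held 178 CPM in Lipo-Clo (149 to 210) against 115 CPM in Lipo-PBS (87.9 to 148). The osteoblast or cementoblast-like state held 147 CPM (128 to 168) and 117 CPM (101 to 135). Over both libraries the 2 states differed by 1.15-fold. Their intervals overlapped within each library, and in Lipo-PBS alone the osteoblast or cementoblast-like state led. Next over both libraries came the Pappa2/Tnn periodontal ligament-like state, at 101 and 102 CPM. In Lipo-PBS alone the Ctnnd2/Cntn4 papilla or pulp-like state came next instead, at 110 CPM from 48 UMIs, against 74.9 CPM in Lipo-Clo. Both 110 and 102 CPM lay within the odontoblast-like interval of Lipo-PBS, so the lead was not separated from these states in that library. No Sp7 UMI was found in the 252 cells of the Col14a1/Ccl19 fibroblast-like state, which allows a share of up to 1.19% of cells with a UMI and does not bound the share of cells that express the gene.

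Sp7 ratios differed in size between states. The ratio was 0.63 in the odontoblast-like state (0.18 to 1.09), 0.63 in the Lrrc4c/Cntn6 papilla or pulp-like state (0.21 to 1.06), 0.45 in the Pcp4/H19 state (0.05 to 0.85) and 0.33 in the osteoblast or cementoblast-like state (0.04 to 0.62). In the Pappa2/Tnn state it was -0.02 (-0.31 to 0.27). In the Ctnnd2/Cntn4 papilla or pulp-like state it was -0.55, with an interval that included 0 (-1.14 to 0.05). Sp7 lay above 0 while Runx2 lay below 0 in 6 of the 8 states where both had enough UMIs. Only in the Lrrc4c/Cntn6 and Pcp4/H19 states were both intervals clear of 0. The Sp7 interval included 0 in the follicle-like state (-0.14 to 1.48) and the Edil3/Angptl1 state (-0.41 to 1.18). The Runx2 interval included 0 in the osteoblast or cementoblast-like and odontoblast-like states.

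**Figure D2:**
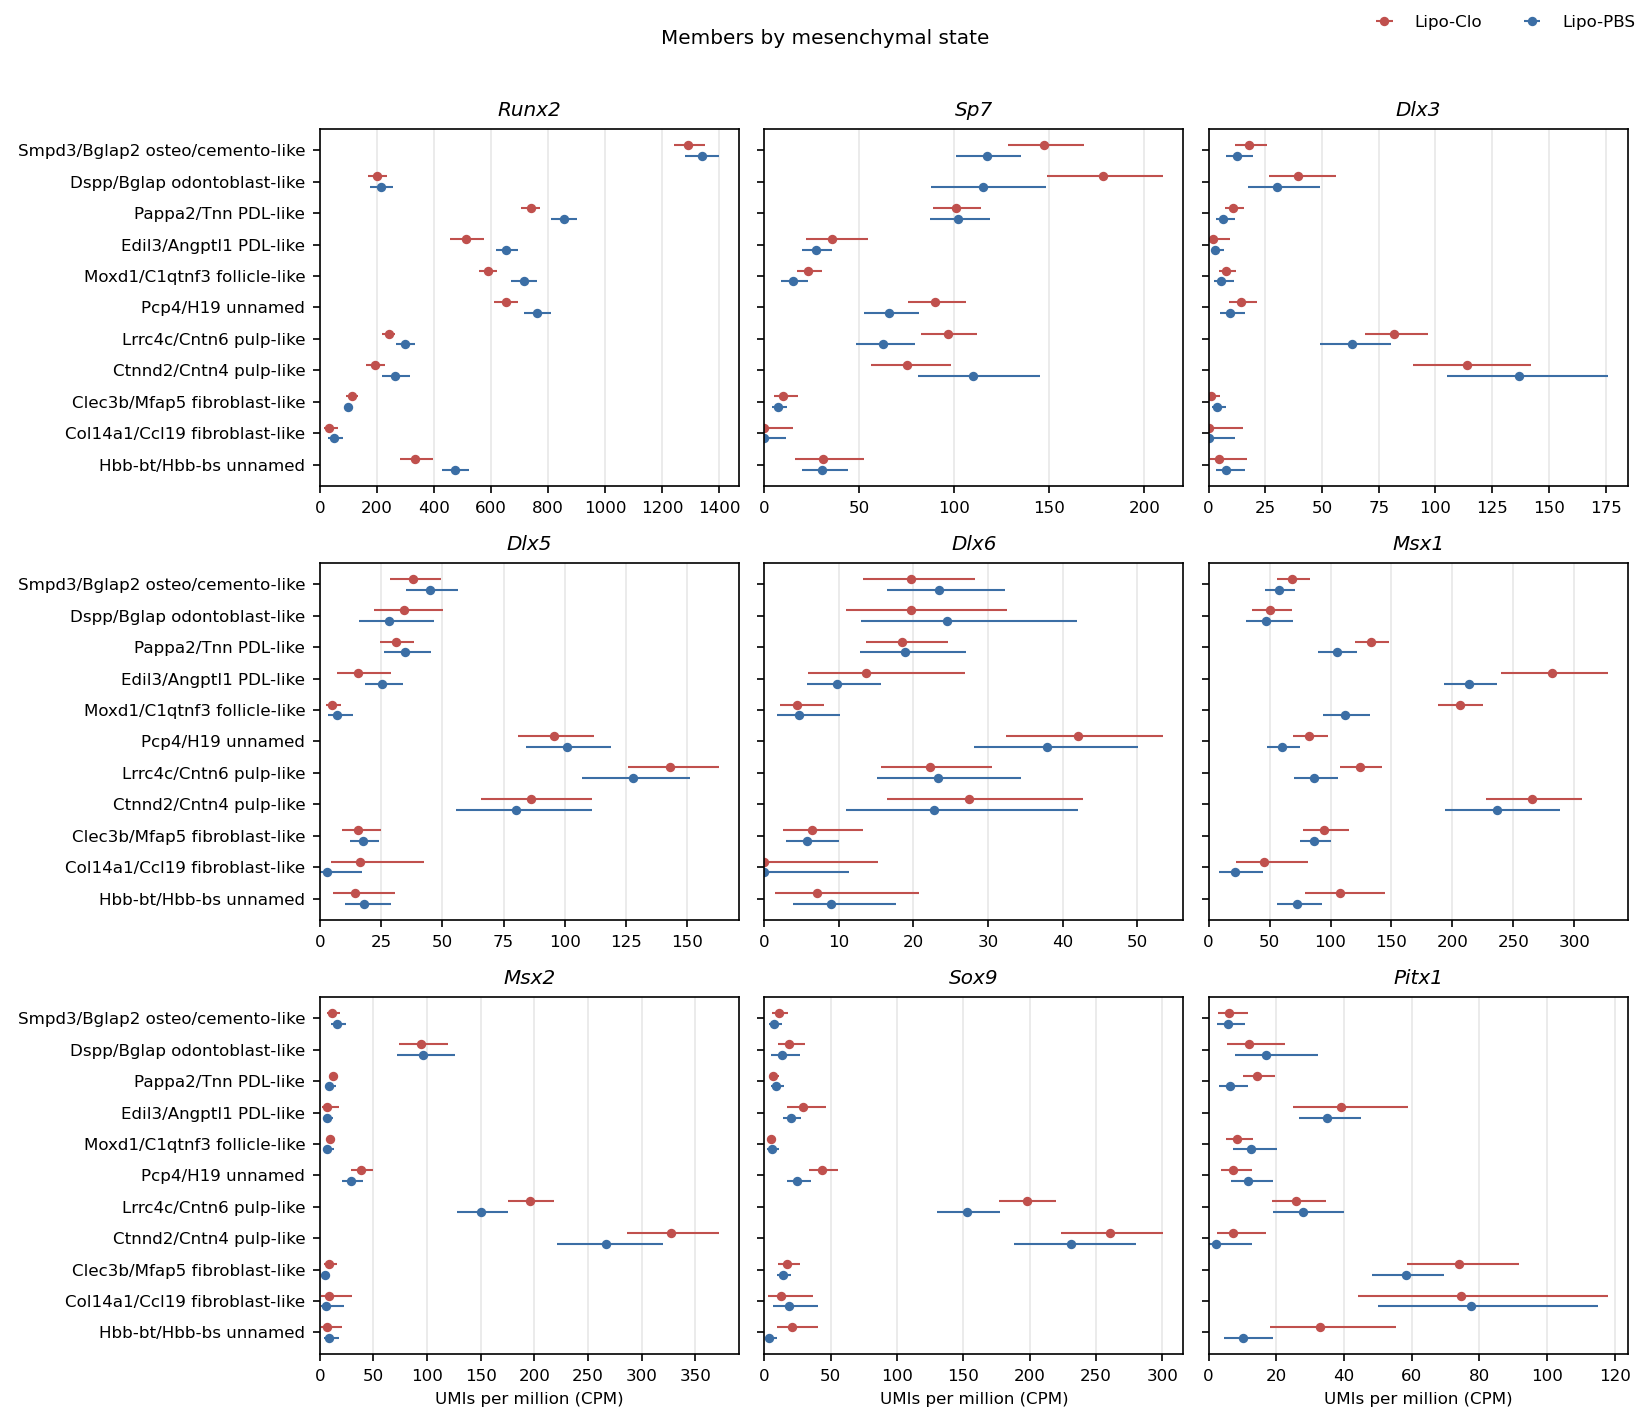
Level of each member in the 11 mesenchymal states, in CPM, for Lipo-Clo (red) and Lipo-PBS (blue), with exact 95% Poisson intervals. PDL is periodontal ligament and pulp is dental papilla or pulp. Dlx3, Msx2 and Sox9 are high in the 2 pulp-like states and low in most others, Runx2 is highest in the osteoblast or cementoblast-like state, and Pitx1 is highest in the fibroblast-like states.

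Dlx3 (ENSMUSG00000001510, chr11:95120119-95125296, plus strand), a homeobox gene with roles in hair, enamel and dentin, was highest in ameloblasts. Ameloblasts held 108 CPM in Lipo-Clo against 77.5 CPM in Lipo-PBS, and over both libraries this was 3.80-fold the level of the next class, the other epithelium. Mesenchyme held 25.8 CPM in Lipo-Clo against 16.6 CPM in Lipo-PBS, from 346 and 213 UMIs. The Dlx3 ratio was 0.64 in mesenchyme (0.39 to 0.89) and 0.48 in ameloblasts (0.08 to 0.91).

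Most mesenchymal Dlx3 lay in the 2 papilla or pulp-like states. The Ctnnd2/Cntn4 state held 114 CPM in Lipo-Clo (90.1 to 142) against 137 CPM in Lipo-PBS (105 to 176). The Lrrc4c/Cntn6 state held 81.9 CPM (68.9 to 96.7) and 63.3 CPM (49.2 to 80.3). The odontoblast-like state followed with 39.5 and 30.2 CPM, and no other state exceeded 17.7 CPM in either library. The Dlx3 ratio within the papilla or pulp-like states was 0.37 in the Lrrc4c/Cntn6 state and -0.27 in the Ctnnd2/Cntn4 state, and neither interval excluded 0. Enamel transcripts in mesenchyme were at 0.508% of their ameloblast level in Lipo-Clo and 0.548% in Lipo-PBS. Ameloblast RNA at that dilution would give 2.13% and 2.56% of the mesenchymal Dlx3 level.

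Dlx5 (ENSMUSG00000029755, chr6:6877805-6882085, minus strand) and Dlx6 (ENSMUSG00000029754, chr6:6863334-6868568, plus strand) are neighbours that lie 9236 bases apart and pattern the lower jaw. Dlx5 had no clear leading class: mesenchyme held 49.4 CPM in Lipo-Clo against 42.9 CPM in Lipo-PBS, cycling cells 49.4 and 47.2 CPM, perivascular cells 66.4 and 44.1 CPM, and the other epithelium 39.1 and 51.1 CPM. Ameloblasts were low in Dlx5, at 11.4 and 8.99 CPM. In mesenchyme the ratio was 0.20 (0.04 to 0.37). In perivascular cells it was 0.59 (0.02 to 1.16).

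Dlx5 was highest in the Lrrc4c/Cntn6 papilla or pulp-like state, at 143 CPM in Lipo-Clo (126 to 163) against 128 CPM in Lipo-PBS (107 to 151). The Pcp4/H19 state followed with 95.5 and 101 CPM, and the Ctnnd2/Cntn4 state with 86.4 and 79.9 CPM. The follicle-like state was near the bottom, at 4.82 and 7.03 CPM. No state gave a Dlx5 ratio with an interval clear of 0, and 5 of the 7 states with enough UMIs were below 0.

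Dlx6 was rarer, at 18.1 CPM in mesenchyme of Lipo-Clo and 16.1 CPM in Lipo-PBS, and the ratio of 0.16 had an interval from -0.11 to 0.44. It was highest in the Pcp4/H19 state, at 42.0 CPM in Lipo-Clo against 37.9 CPM in Lipo-PBS. The antisense transcript Dlx6os1 (ENSMUSG00000090063) overlaps Dlx6 on the opposite strand, and whether strand was used in counting is not given in the sources used here, so reads of the overlap may have been assigned to either gene. Dlx6os1 was highest in the papilla or pulp-like states. It had 286 and 351 CPM in the Lrrc4c/Cntn6 state and 163 and 212 CPM in the Ctnnd2/Cntn4 state. Over both libraries, these states came next after the Pcp4/H19 state for Dlx6. Dlx6 had 22.2 and 23.3 CPM in the Lrrc4c/Cntn6 state and 27.4 and 22.8 CPM in the Ctnnd2/Cntn4 state. In Lipo-PBS alone, 2 other states came next instead. These were the odontoblast-like state, at 24.5 CPM from 13 UMIs, and the osteoblast or cementoblast-like state, at 23.4 CPM from 37 UMIs. The Dlx6os1 ratio was 0.23 over all mesenchyme (0.07 to 0.38), while the 2 papilla or pulp-like states combined were at -0.31 (-0.49 to -0.13). Runx2 has 3 such antisense transcripts, of which Runx2os1 gave 55 and 51 mesenchymal UMIs and the other two gave none.

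Msx1 (ENSMUSG00000048450, chr5:37820485-37824583, minus strand) is a homeobox gene that keeps dental mesenchyme undifferentiated and whose loss arrests tooth development. Its ratio of Lipo-Clo over Lipo-PBS was above 0 in 10 of 10 states with enough UMIs, the most of any member. Fewer states qualified for rarer members, and Sox9 was above 0 in 4 of 4. In mesenchyme Msx1 stood at 135 CPM in Lipo-Clo against 103 CPM in Lipo-PBS, from 1804 and 1327 UMIs, a ratio of 0.38 (0.28 to 0.48). Cycling cells held 129 and 103 CPM and perivascular cells 125 and 88.1 CPM, so these 3 classes overlapped in level. Ameloblasts held 16.8 and 22.5 CPM, near the B cell values of 10.6 and 25.5 CPM. Among thinned cells, 10.8% of mesenchymal cells and 1.53% of B cells held an Msx1 UMI.

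All 10 states with at least 50 Msx1 UMIs had a ratio above 0. The ratio was 0.88 in the follicle-like state (0.61 to 1.16), where the level was 206 CPM in Lipo-Clo against 112 CPM in Lipo-PBS. It was 0.52 in the Lrrc4c/Cntn6 state (0.16 to 0.89), 0.45 in the Pcp4/H19 state (0.04 to 0.88), 0.40 in the Edil3/Angptl1 state (0.12 to 0.66) and 0.35 in the Pappa2/Tnn state (0.08 to 0.62). In the haemoglobin-rich Hbb-bt/Hbb-bs state it was 0.58, with a lower bound at 0.00. The 4 remaining states, the osteoblast or cementoblast-like, odontoblast-like, Clec3b/Mfap5 fibroblast-like and Ctnnd2/Cntn4 states, had ratios from 0.08 to 0.25 with intervals that included 0. By level, the Edil3/Angptl1 state (282 and 214 CPM) and the Ctnnd2/Cntn4 state (265 and 237 CPM) led and were not separated beyond counting error.

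The 250 bases before the Msx1 start site are shown. Such stretches were at hand for 3 of the 9 members, Msx1, Msx2 and Runx2. Those of Msx2 and Runx2 lay within the GENCODE M21 transcript and are left out. The stretch is chr5:37824586-37824835 on GRCm38.p6, minus strand, written 5′ to 3′ from RefSeq. Capitals mark the matches to the motifs searched on both strands.
Msx1: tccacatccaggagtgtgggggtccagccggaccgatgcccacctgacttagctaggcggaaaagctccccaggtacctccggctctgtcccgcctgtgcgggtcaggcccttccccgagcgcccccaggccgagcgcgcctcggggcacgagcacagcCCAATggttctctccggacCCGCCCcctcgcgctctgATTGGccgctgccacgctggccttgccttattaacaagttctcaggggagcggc
The capitals are a CCAAT box (CCAAT) starting 91 bases before the start site, a GC box (GGGCGG, here as CCGCCC) at 72 bases and a CCAAT box on the other strand (ATTGG) at 54 bases. Of 32851 stretches of the same length before RefSeq start sites, 33.8% held CCAAT and 32.7% held GGGCGG on either strand. The RUNX motif TGTGGT (14.0% of stretches) and the homeodomain motifs TAATTA (4.84%) and TAATTG (7.17%) had no match in the Msx1 window. A match describes these letters and is not evidence of binding.

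Msx2 (ENSMUSG00000021469, chr13:53466884-53473074, minus strand), the BMP-responsive partner of Msx1, was higher in both epithelial classes than in mesenchyme. The other epithelium held 108 CPM in Lipo-Clo against 109 CPM in Lipo-PBS, and ameloblasts held 77.9 and 75.3 CPM, with no ratio clear of 0 in either class. Mesenchyme held 58.1 CPM in Lipo-Clo against 35.0 CPM in Lipo-PBS, from 779 and 449 UMIs. This ratio of 0.73 (0.56 to 0.90) was the largest of the 9 members. Mesenchymal Msx2 was seen in 12.2% of Lipo-Clo cells and 8.12% of Lipo-PBS cells.

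Within mesenchyme, Msx2 was concentrated in papilla or pulp-like cells. The Ctnnd2/Cntn4 state held 327 CPM in Lipo-Clo (286 to 372) against 267 CPM in Lipo-PBS (221 to 320). The Lrrc4c/Cntn6 state held 196 CPM (175 to 218) and 150 CPM (128 to 175). The odontoblast-like state held 94.7 and 96.1 CPM, and the periodontal ligament-like and follicle-like states held between 6.83 and 12.0 CPM. The order of these first 3 states was the same in both libraries and their intervals did not overlap. Within states the ratio was 0.38 in the Lrrc4c/Cntn6 state, where the interval lay above 0, and 0.29 in the Ctnnd2/Cntn4 state and -0.02 in the odontoblast-like state, where it did not. The Ctnnd2/Cntn4 state was also the shallowest, with a median of 1364 UMIs, and its erythroid markers summed to 82300 and 71900 CPM.

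Sox9 (ENSMUSG00000000567, chr11:112782224-112787760, plus strand) resembled Msx2 in mesenchyme. The other epithelium held 63.1 CPM in Lipo-Clo against 62.2 CPM in Lipo-PBS, and ameloblasts held 11.4 and 5.62 CPM. Mesenchyme held 51.8 CPM in Lipo-Clo against 32.0 CPM in Lipo-PBS, from 694 and 411 UMIs, a ratio of 0.69 (0.51 to 0.87), while the ratio in the other epithelium was 0.02 (-0.45 to 0.48). The Ctnnd2/Cntn4 state held 261 CPM in Lipo-Clo (224 to 301) against 231 CPM in Lipo-PBS (188 to 280), and the Lrrc4c/Cntn6 state held 198 CPM (177 to 220) and 153 CPM (130 to 178). The Pcp4/H19 state followed at 43.9 and 24.8 CPM, and here the ratio was 0.83 (0.20 to 1.48). The 7 chondrocyte markers summed to 29.2 and 28.0 CPM over all mesenchyme and to 99.5 and 68.9 CPM in the Lrrc4c/Cntn6 state, and the cartilage gene Matn1 had no mesenchymal UMI in either library.

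Pitx1 (ENSMUSG00000021506, chr13:55825051-55836192, minus strand) was the most epithelial member. The other epithelium held 182 CPM in Lipo-Clo against 146 CPM in Lipo-PBS, ameloblasts held 89.9 and 92.1 CPM, and mesenchyme held 20.1 and 23.9 CPM. In the other epithelium the ratio was 0.32 (0.03 to 0.60), and in mesenchyme it was -0.25 (-0.49 to -0.01), which turned to 0.22 when both libraries were weighted to the same mixture of states. The fibroblast-like states, where mesenchymal Pitx1 was highest, led for no other member. The Col14a1/Ccl19 state held 74.6 and 77.6 CPM, from 18 and 25 UMIs, and the Clec3b/Mfap5 state 73.9 and 58.2 CPM. The Edil3/Angptl1 state, also high in Msx1, held 39.2 and 35.0 CPM. Msx1 was present in the Clec3b/Mfap5 state too, at 94.8 and 86.8 CPM. The Ctnnd2/Cntn4 state, where 4 other members led, held 7.20 and 2.28 CPM, from 5 UMIs and 1 UMI. No state with at least 50 Pitx1 UMIs gave a ratio with an interval clear of 0.

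Over all mesenchyme, 3 of the 9 members were at least 1.5-fold higher in Lipo-Clo: Msx2, Sox9 and Dlx3. Of the 6 members in use, meaning seen in at least 10% of mesenchymal cells of either library, 2 passed this limit, Msx2 and Sox9. Among all 4697 genes in use, 36 did, or 0.766%. No member was 1.5-fold lower, beside 238 genes in use, or 5.07%. The median ratio of all genes in use was -0.02. Both Msx2 and Sox9 reached the 10% share in Lipo-Clo but not in Lipo-PBS, so the library where they were higher admitted them to the genes in use. Among the 15114 genes with at least 20 mesenchymal UMIs over both libraries, which included all 9 members, 838 were 1.5-fold higher, or 5.54%, and 9.41% were 1.5-fold lower. Because the members were chosen with earlier results of these data known, these counts describe the genes and are not independent evidence.

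**Figure D3:**
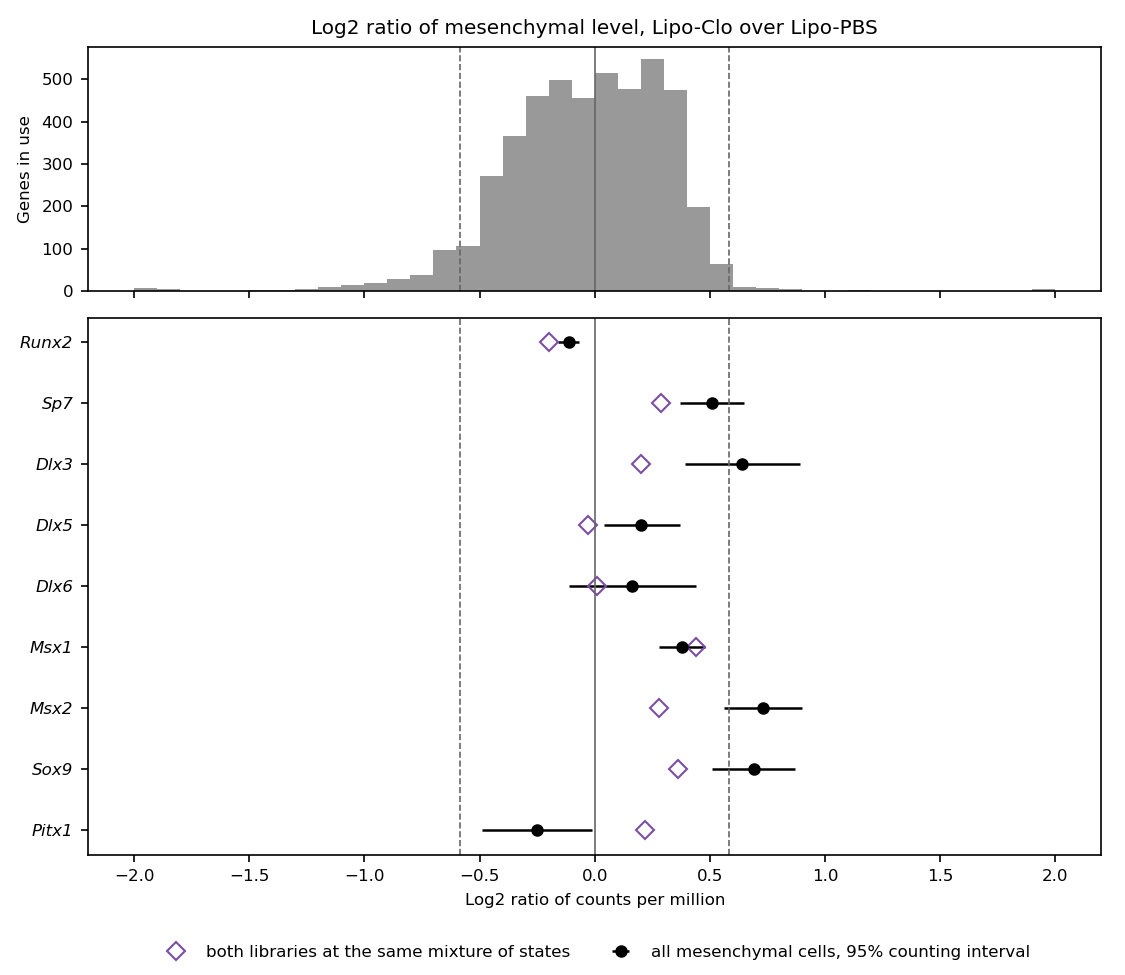
Log2 ratio of mesenchymal level, Lipo-Clo over Lipo-PBS. The upper panel counts the 4697 genes in use, with ratios beyond 2 in either direction drawn at the edge. The lower panel gives each member with its 95% counting interval (black) and after weighting both libraries to the same mixture of states (open diamonds). Dashed lines mark 1.5-fold. Msx2, Sox9 and Dlx3 lie past the line in all mesenchymal cells and inside it at the same mixture.

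The 3 calls were not kept when both libraries were weighted to the same mixture of states, as given below. The 2 papilla or pulp-like states held 909 of the Lipo-Clo mesenchymal cells (22.2%) and 495 of the Lipo-PBS cells (12.7%). State sizes are given here only as the weights behind the ratios. In Lipo-Clo, 74.8% of mesenchymal Sox9 UMIs (71.4 to 78.0), 72.0% of Msx2 UMIs (68.7 to 75.1) and 63.3% of Dlx3 UMIs (58.0 to 68.4) came from these states, beside 17.9% of the UMIs of all genes. In Lipo-PBS the shares were 64.5% for Sox9, 61.9% for Msx2 and 60.1% for Dlx3, beside 11.8% for all genes. Runx2 lay on the other side of that line, with 7.32% and 5.67% of its UMIs in these states.

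When both libraries were weighted to the same mixture of the 11 states, no member remained past 1.5-fold. The ratio of Msx2 was then 0.28, that of Sox9 0.36, that of Dlx3 0.20 and that of Sp7 0.29. Msx1 was at 0.44 after weighting and Runx2 at -0.20, each farther from 0 than before. Pitx1 turned from -0.25 to 0.22, and Dlx5 went to -0.03. Among all genes in use, 19 were 1.5-fold higher at the same mixture.

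**Figure D4:**
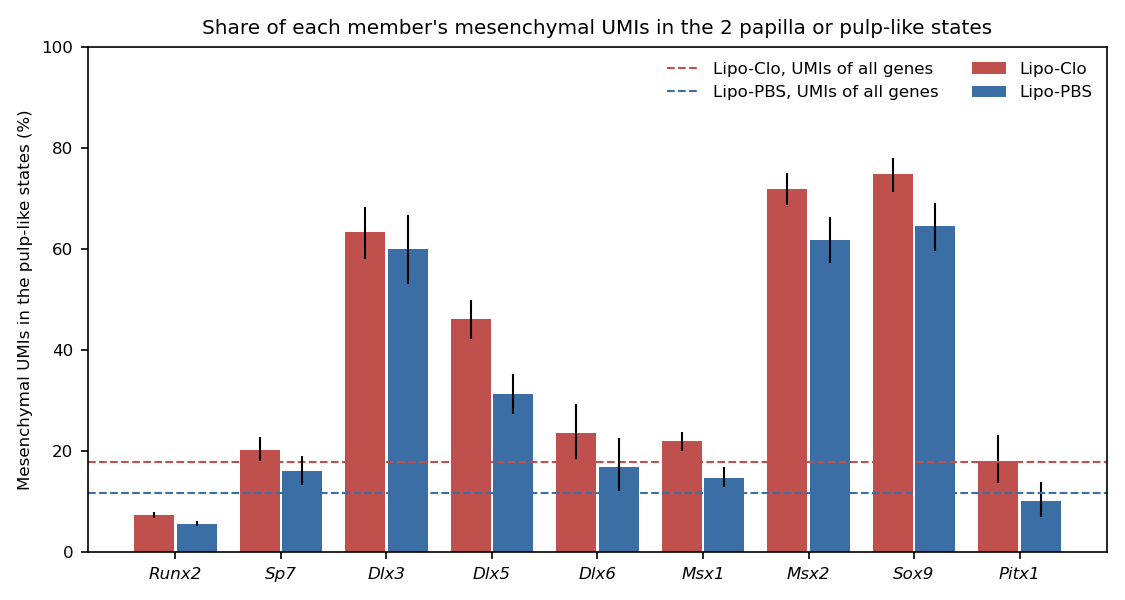
Share of each member's mesenchymal UMIs that lay in the 2 papilla or pulp-like states, for Lipo-Clo (red) and Lipo-PBS (blue), with exact 95% Clopper-Pearson intervals. Dashed lines give the share for the UMIs of all genes, 17.9% and 11.8%. Sox9, Msx2 and Dlx3 stand between 60.1% and 74.8%, and Runx2 stands below the lines.

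Splitting the mesenchyme at these states, a division chosen after the levels had been seen, gave ratios for both sides. Within the papilla or pulp-like states the ratio was 0.34 for Msx2 (0.13 to 0.56), 0.30 for Sox9 (0.08 to 0.52) and 0.34 for Msx1 (0.09 to 0.59). In the other states combined it was 0.39 for Msx2 (0.10 to 0.69), 0.30 for Sox9 (-0.02 to 0.63) and 0.36 for Msx1 (0.24 to 0.47). The ratios of these 3 genes were of like size on both sides, though for Sox9 the outer interval included 0. Of the 175 and 146 outer Sox9 UMIs, 68 and 32 lay in the Pcp4/H19 state, where the ratio was 0.83. That state scored highest for papilla or pulp markers but kept no name. The only other outer state with enough Sox9 UMIs, Edil3/Angptl1, was at 0.53 (-0.40 to 1.40). Runx2 was at -0.35 inside (-0.53 to -0.17) and -0.03 outside (-0.08 to 0.01). Sp7 was at 0.25 inside (-0.09 to 0.59) and 0.54 outside (0.39 to 0.69). Dlx3 was at 0.11 inside (-0.22 to 0.43) and 0.62 outside (0.21 to 1.03), the latter from 127 and 85 UMIs. Neither side was weighted for its own mixture of states. Outside, Runx2 ratios of single states with enough UMIs ran from -0.50 (Hbb-bt/Hbb-bs) to 0.20 (Clec3b/Mfap5). The Clec3b/Mfap5 state, low in Runx2, held 11.1% of Lipo-Clo and 20.1% of Lipo-PBS mesenchymal cells.

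**Figure D5:**
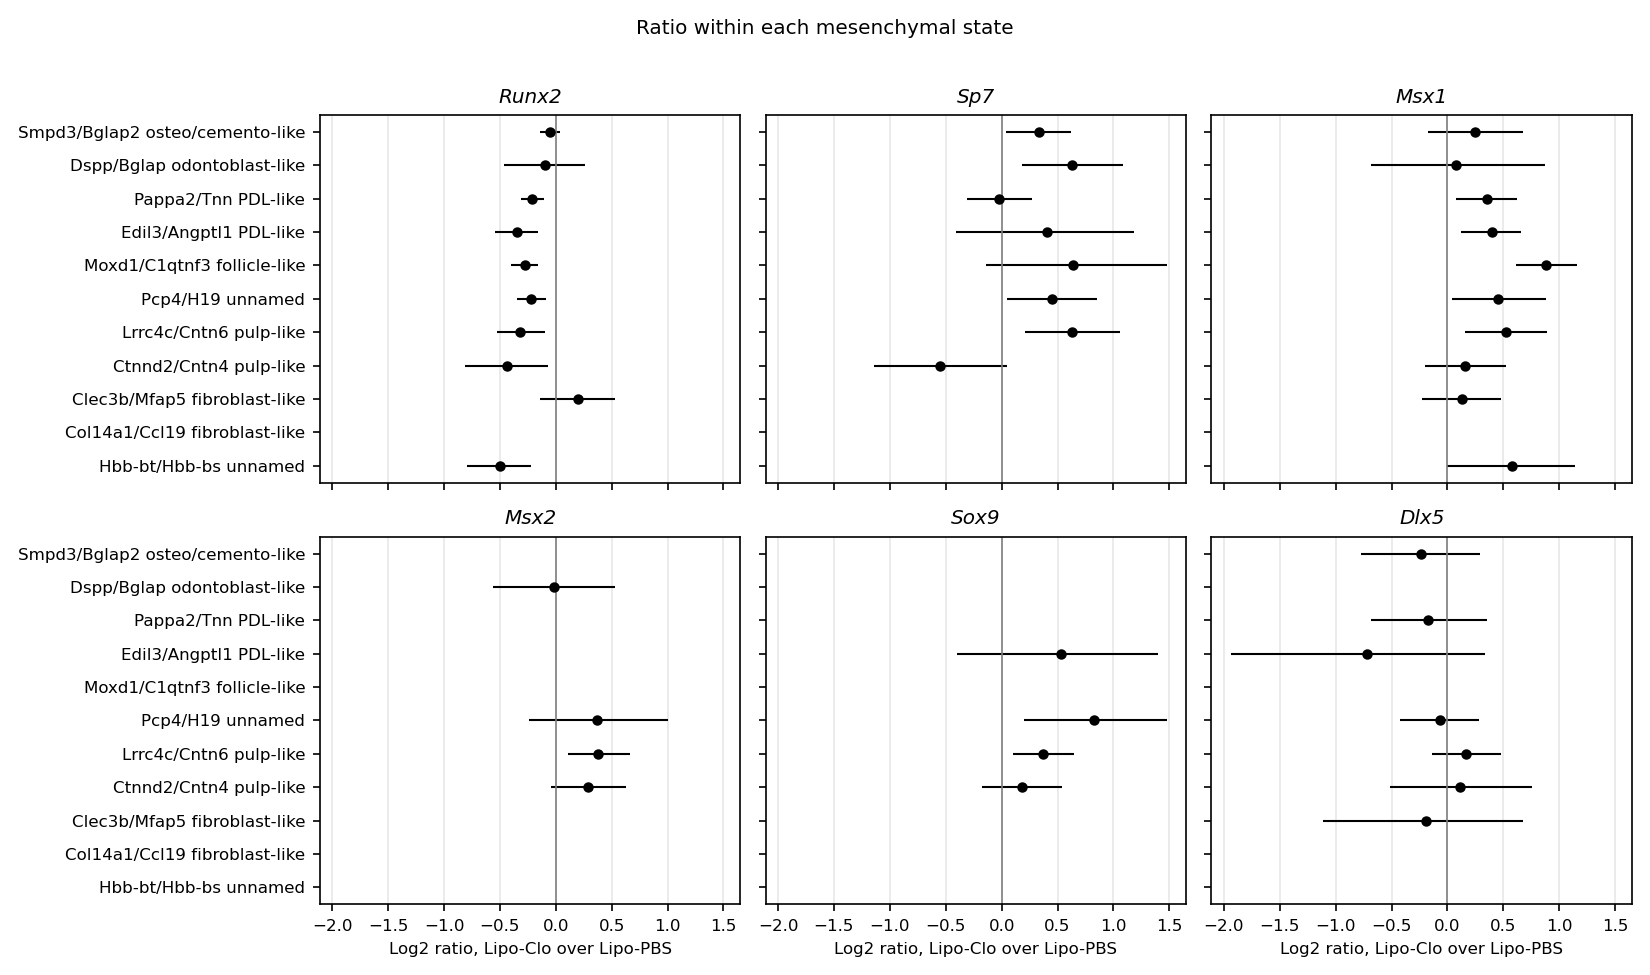
Log2 ratio of Lipo-Clo over Lipo-PBS within each mesenchymal state for 6 members, with 95% counting intervals. A state is drawn only where the member had at least 50 UMIs over both libraries. Msx1 lies above 0 in all 10 states drawn, and Runx2 lies below 0 in 9 of 10.

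At equal depth, UMIs of several members were seen together in few cells. A depth of 1000 UMIs limits such counts, since every member but Runx2 stood at 135 CPM or less in mesenchyme. A missing UMI does not show that a cell lacks the transcript, so these shares do not measure how many cells express several members. After thinning to 1000 UMIs, 16.0% of 3715 Lipo-Clo mesenchymal cells and 12.7% of 3641 Lipo-PBS cells held at least 2 members, while 41.7% and 46.9% held none. The share with at least 2 was highest in the Ctnnd2/Cntn4 state, at 35.5% and 36.4%, whereas B cells were at 0.391% and 5.88%. Thinning had left out 137 Lipo-Clo and 49 Lipo-PBS cells of the Ctnnd2/Cntn4 state as too shallow. Over both libraries, 15.4% of the 324 thinned cells with an Msx2 UMI also held Sox9 (11.7 to 19.8), beside 3.56% of cells without Msx2 (3.13 to 4.01). Inside the Ctnnd2/Cntn4 state this difference was not seen, with 19.8% of Msx2 cells (13.1 to 28.1) and 22.8% of the others (18.5 to 27.6) holding Sox9. Runx2 went the opposite way over all mesenchyme, where 2.41% of Runx2 cells (1.86 to 3.06) and 5.05% of cells without Runx2 (4.44 to 5.71) held Sox9. For Msx1 and Msx2 within the Ctnnd2/Cntn4 state, 36.3% of Msx1 cells (27.4 to 45.9) and 22.9% of the others (18.6 to 27.6) held Msx2. These intervals overlapped slightly. All pairs of members with enough cells were counted, and only a few are given here.

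Across the 11 states of both libraries (22 points that share libraries, depth and clustering), the levels of some members followed each other closely. As a description, Pearson's r on log2(CPM + 1) was 0.94 for Sp7 and Dlx6, 0.89 for Dlx3 and Msx2, 0.79 for Msx2 and Sox9, and 0.79 for Dlx5 and Dlx6. Sp7, Dlx3 and Dlx6 had no UMI in the Col14a1/Ccl19 state in either library, so that state entered their r values at the floor. Most states held fewer than 50 UMIs of Dlx3 or of Dlx6. Runx2 and Sp7 were at 0.70, Runx2 and Sox9 at -0.23, and Pitx1 was negative with all 8 other members, down to -0.74 with Sp7. Among all genes in use, the closest to Runx2 were Arhgef19 (0.90), Foxf2 (0.89) and 2810025M15Rik (0.87). Genes close to Sp7 included 9130024F11Rik (0.92) and Fat3 (0.92). The closest to Dlx3 were Dlx6os1 (0.93), Ankrd6 (0.92) and Fign (0.91), and those close to Dlx6 included Sp7 (0.94) and Fat3 (0.93). For Dlx5 they were Col9a2 (0.91), Tkt (0.86) and Dlx6os1 (0.86). For Msx1 they were Nsg1 (0.89), Prpsap1 (0.83) and Elovl5 (0.80), and for Msx2 they were Gmds (0.93), Sorbs2 (0.93) and Pkp4 (0.91). For Sox9 they were Frmd4a (0.91), Slc20a2 (0.90) and Kctd12 (0.90), and for Pitx1 they were Mfap4, Tm4sf1 and Ecrg4, each at 0.83.

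The lists of related genes below can be read against all genes in use, of which 0.766% were 1.5-fold higher and 5.07% lower, with a median of -0.02. The ratios of listed genes are over all mesenchymal cells and were not weighted to the same mixture of states. At that mixture, the genes in use that were 1.5-fold higher went from 36 to 19. Of 16 genes of BMP signalling into Msx and Dlx genes, 14 were in use, 2 were 1.5-fold higher, none was 1.5-fold lower and the median ratio was 0.02. The BMP target Id1 stood at 99.7 CPM in Lipo-Clo against 61.8 CPM in Lipo-PBS, a ratio of 0.69, and Bmp3, which also served as a follicle marker, at 263 and 157 CPM, a ratio of 0.74. The ligand Bmp4 was at 41.5 and 52.4 CPM, a ratio of -0.34, and Smad4, the shared mediator, had the lowest ratio of the list at -0.41. Id1 was highest in the Lrrc4c/Cntn6 state, at 261 and 184 CPM. That state held 11.8% of Lipo-Clo and 6.92% of Lipo-PBS mesenchymal cells, and the follicle-like state held 15.3% and 9.86%. The part of these shares in the Id1 and Bmp3 ratios was not tested.

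Of 14 paralogues and partners of the members, 3 were in use and all lay below 0. Runx1 stood at 46.0 CPM in Lipo-Clo against 76.0 CPM in Lipo-PBS, a ratio of -0.72 and the only gene of this list past the limit. Cbfb, the partner that RUNX proteins need to bind DNA, was at 64.8 and 79.4 CPM, a ratio of -0.29, and Sp3 had a ratio of -0.20. Of 15 other transcription factors of tooth and jaw mesenchyme, 9 were in use with a median of 0.13 and none past the limit, from Barx1 at 0.29 to Zfp521, a partner that restrains Runx2, at -0.51.

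The matrix genes that lie downstream of Runx2 and Sp7 did not pass the limit. Of 14 mineralised matrix genes, 9 were in use with a median of -0.04, from Bglap (osteocalcin) at 0.22, with 1900 and 1640 CPM, to Ibsp (bone sialoprotein) at -0.14, with 3250 and 3580 CPM. Of 12 cartilage matrix genes, 3 were in use: Col9a2 at 0.48, Col11a2 at 0.39 and Col11a1 at -0.30. Of 7 enamel genes, 2 were in use in mesenchyme, with Ambn at 0.60 past the limit and Odam at 0.39. In ameloblasts themselves the members that led there, Runx2 and Dlx3, were both higher in Lipo-Clo, as given above.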

How the data were processed

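The matrices deposited by the authors hold raw UMI counts for each gene in each called cell, written by Cell Ranger 8.0.0 per the file headers. The submitters' processing notes name Cell Ranger 3.1.0, Seurat 3.1.1 and GRCm39, and the annotation is not given in the sources used here. Deposited depth was 31053404 UMIs in 9362 Lipo-Clo cells and 30537834 UMIs in 9653 Lipo-PBS cells, of which 30 barcodes were shared. Cells under 200 genes (473 and 748) or over 20% mitochondrial UMIs (3 and 11) were left out. Scrublet's automatic threshold called 0 and 1 doublets, so the highest scores at 0.8% per 1000 cells (632 and 633 cells) were left out.

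Counts were scaled to 10000 per cell and clustered together in scanpy 1.11.5, with 2000 variable genes, 30 components, 20 neighbours and Leiden resolution 1 (leidenalg 0.10.2, seed 1), with no batch correction. Mesenchyme was clustered again with 20 components at resolution 0.6. A marker counted at 2-fold over the median cluster and in 10% of cells, at least 3 were required, and the list with the highest mean log2 fold gave the name. Clusters with too few markers, with at least 2 other lineages scoring near the best, or led by another class's genes, stayed unnamed. Over all these reasons, 426 Lipo-Clo and 954 Lipo-PBS cells had no class name. These naming rules were settled after the data were seen.

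UMIs were summed per class or state and divided by the total. Ratios carry exact intervals for 2 Poisson counts and were read in states with at least 50 UMIs. The intervals were checked only on counts simulated as Poisson, so the check does not cover further spread between cells. With 1 library per condition, no test was run. The named genes are the 9 members, the 3 genes in use most like each of them, the highest, the lowest and up to 3 more of each list, and the members' antisense transcripts. A gene that this rule names is not reported here. The members and lists were chosen with earlier results of these data known. Alternatives covered cell filters, doublets, resolutions, edgeR 4.0.16 and DESeq2 1.42.0 factors, thinning, state mixture, limits and background.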

Additional observations from a re-analysis of the deposited data

Results flagged for a closer look

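Runx2 differed in the sign of its ratio of Lipo-Clo over Lipo-PBS between cell classes, with counting intervals clear of 0 on both sides. It was 0.22 in ameloblasts and -0.82 in erythroid cells, the extremes among named classes with at least 200 of its UMIs. The difference between the classes was not tested. Erythroid cells held 80.1 CPM in Lipo-Clo against 142 CPM in Lipo-PBS, below the B cell values of 146 and 228 CPM. What part of these levels free RNA makes up was not tested. Cells without a class name had a lower Runx2 ratio still, at -1.07 (-1.29 to -0.85). Pitx1 was also split, at 0.32 in the other epithelium and -0.25 in dental mesenchyme, which was not tested either. The mesenchymal value turned to 0.22 at the same mixture of states, so the opposite signs did not hold under that weighting.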

How the results depend on the processing

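No paired analysis was possible because a single library stands for each condition. The count of 3 members higher by 1.5-fold went to 0 at the same mixture of states, to 0 at the same mixture of states drawn at resolution 1 (chosen after seeing the data), to 5 at a limit of 0.32 on the log2 scale and to 0 at 2-fold. The 36 genes in use that were higher became 82 with cells thinned to 1000 UMIs, 19 and 14 at the 2 mixtures, 838 among all 15114 genes with at least 20 UMIs, 684 at the limit of 0.32 and 7 at 2-fold. The 238 that were lower became 140 at the mixture drawn at resolution 1, 1422 among all genes with at least 20 UMIs, 857 at the limit of 0.32 and 46 at 2-fold. Of all genes past the limit, 13.1% were higher, and this share was 27.9% with thinned cells and 23.6% as a mean over scaled cells. At mesenchymal resolution 0.3, 4 of 9 members kept their leading state, and Dlx3, Msx2 and Sox9 then led in the Lrrc4c/Cntn6 state, Msx1 in the follicle-like state and Pitx1 in the Clec3b/Mfap5 state. At resolution 1, 8 of 9 did, and Runx2 then led in a cluster mostly of Pappa2/Tnn cells.

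Over 15 alternatives each, Sp7 (0.27 to 0.65), Dlx3 (0.19 to 0.85), Msx1 (0.28 to 0.44), Msx2 (0.27 to 0.86) and Sox9 (0.36 to 0.96) stayed above 0. Runx2 (-0.21 to 0.04), Dlx5 (-0.04 to 0.31), Dlx6 (-0.01 to 0.35) and Pitx1 (-0.34 to 0.23) crossed 0. Leaving out the haemoglobin-rich state, also chosen after seeing the data, left 3 members past the limit. No scaling moved the median of all genes by 0.1 or more. Clusters of several lineages, most of them from Lipo-PBS, were left out of mesenchyme, and counting them in put 4 members past the limit. Over all cells without a class name, ratios were -1.69 for Msx1, -1.65 for Dlx5, -1.56 for Msx2, -1.36 for Pitx1 and -1.02 for Sox9. Each of these intervals lay below 0. Sp7 was at -0.65 there, with an interval that included 0 (-1.42 to 0.07), and Dlx3 and Dlx6 had too few UMIs. The part of cluster mixture in these ratios was not tested. With 1 library per condition, no interval covers the difference between mice.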
